A study of Mus musculus with 9 samples.

Results

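Transforming growth factor beta (TGF-beta) is made by cells in a latent form, held in the matrix by binding proteins, and read by target cells through a receptor pair and Smad proteins. The genes described here are 10 of the 54146 in the deposited count table, chosen by symbol: the ligands Tgfb1, Tgfb2 and Tgfb3, the latent binding proteins Ltbp1 and Ltbp3, the receptors Tgfbr1 and Tgfbr2, the signal carrier Smad3, its inhibitor Smad7, and Tgfbi, a matrix protein gene named for its induction by the ligand. All 10 were found and all 10 passed the filter on low counts.

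RNA sequencing had been done on cells sorted from adult mouse quadriceps muscle infiltrates, 9 libraries in 3 groups of 3 that the study's design text calls biological replicates. IL5Tg mice carried a transgene for interleukin-5, the cytokine that drives eosinophil production and survival. The mdx group carried the dystrophin mutation that models Duchenne muscular dystrophy, and the mdx_IL5Tg group combined both. Groups were read from the sample titles, since the strain label says mdx for all 9 samples, IL5Tg included. The labels name neither the promoter of the transgene nor the number of mice per library. The sort kept live cells that stained for CD45 and Siglec-F and left out cells with CD11c, Gr1 or MHC class II, a gate for eosinophils. If same-group libraries did not come from separate animals, p-values measure only the spread between libraries.

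TGF-beta ligands are translated as precursors that furin cleaves, and the propeptide stays wrapped around the ligand. Latent TGF-beta binding proteins attach that complex to matrix fibrils, and integrins, thrombospondin and proteases release the active ligand. The free ligand binds Tgfbr2, which recruits and phosphorylates Tgfbr1, and Tgfbr1 phosphorylates Smad2 and Smad3. These enter the nucleus with Smad4 and act at target genes, among them Smad7, which feeds back on the receptor. In dystrophic muscle the pathway is known for its place in fibrosis, and eosinophils are a known source of the ligand Tgfb1.

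Total counts ran from 26752800 to 58368300 per library, and levels are given as CPM, counts scaled to a common library size with TMM factors. Il5, the transgene's gene, stood between 317 and 724 CPM in the 6 transgenic libraries and between 0.265 and 0.402 CPM in the 3 mdx libraries. All 10 eosinophil markers were detected, and their summed level ran from 5672 to 15786 CPM in IL5Tg, from 5116 to 5569 in mdx_IL5Tg and from 2143 to 2926 in mdx. Every mdx_IL5Tg library lay below IL5Tg for Epx, Prg2, Ear1, Ear2 and Ear6, and above it for Siglecf, Ccr3 and Alox15. Il5ra and Cebpe overlapped, and 0 of the 10 markers passed the test given below in that comparison. Library S7 of IL5Tg stood apart by the highest sums of eosinophil (15786 CPM), neutrophil (1337 CPM) and proliferation markers (475 CPM). Library S5 of mdx stood apart by a mitochondrial share of 0.383% of counts, against 1.28% and 1.55% in the other mdx libraries. The 10 fibroblast markers summed to 986 to 2278 CPM in IL5Tg, 794 to 3088 in mdx_IL5Tg and 4537 to 10995 in mdx. The 12 macrophage markers summed to 218 to 253, 339 to 457 and 616 to 1015 CPM in the same order. In sorted bulk RNA, fewer cells of a type and less RNA per cell cannot be told apart.

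The 10 genes fell into 4 patterns across the groups. Tgfb1, Smad7 and Tgfbi were lowest in IL5Tg and higher in both groups on the mdx background. Tgfbr2 was about 2.07-fold higher in mdx_IL5Tg than in IL5Tg and 2.11-fold lower in mdx than in mdx_IL5Tg. Smad3 was also highest in mdx_IL5Tg but passed only in mdx against mdx_IL5Tg (adjusted p = 0.048 by edgeR). That call was lost in some alternatives given with its values. Tgfb2, Ltbp1 and Ltbp3 were highest in mdx. Tgfbr1 and Tgfb3 did not pass edgeR's test in the 3 comparisons as fitted here, and Tgfb3 passed under some alternatives given with its values.

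By edgeR's quasi-likelihood test at an adjusted p of 0.05, 4 of the 10 genes were higher and 0 lower in mdx_IL5Tg than in IL5Tg, where 7.22% of the 15886 genes tested were called (4.35% higher, 2.87% lower). From mdx_IL5Tg to mdx, 3 were higher and 2 lower, against a background of 21.6% called (11.5% higher, 10.1% lower). From IL5Tg to mdx, 6 were higher and 0 lower, against 20.8% called (11.8% higher, 8.96% lower). The median log2 change of the 10 genes was 0.38, −0.066 and 0.57 in the 3 comparisons, beside −0.050, 0.13 and 0.013 over all genes tested. Groups did not overlap in level for 5, 5 and 6 of the 10 genes, beside 35.9%, 42% and 41.9% of all genes tested. The counts of 0 lower among the 10 were also 0 at an unadjusted p of 0.05 and by DESeq2, voom and voom with quality weights. The comparisons share libraries pairwise and are not independent of each other. Scaling by library totals alone changed the split of calls over all genes: the higher share of calls went from 60.2% to 24.1% for mdx_IL5Tg against IL5Tg, from 53.3% to 84.3% for mdx against mdx_IL5Tg and from 56.8% to 70.7% for mdx against IL5Tg. That scaling moved the median of all genes to −0.27, 0.46 and 0.12, and the changes below are on the TMM scale.

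Marker lists of several cell types also differed between the 2 groups with the transgene. In mdx_IL5Tg against IL5Tg, 6 of 12 macrophage markers, 6 of 11 muscle fibre markers and 4 of 8 class II and dendritic cell markers were higher, and 5 of 8 proliferation markers were lower by the same test (summed level 104 to 475 CPM in IL5Tg and 41.9 to 59.4 in mdx_IL5Tg). Of all genes tested, 4.35% were higher and 2.87% lower in that comparison. The muscle fibre sum was small, at 8.38 to 12.1 CPM in IL5Tg and 22.2 to 28.3 in mdx_IL5Tg, and the class II sum was 11.9 to 27.4 and 31.9 to 138 CPM. The part of these markers in the results on Tgfb1, Smad7, Tgfbi and Tgfbr2 was not tested.

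**Figure D1:**
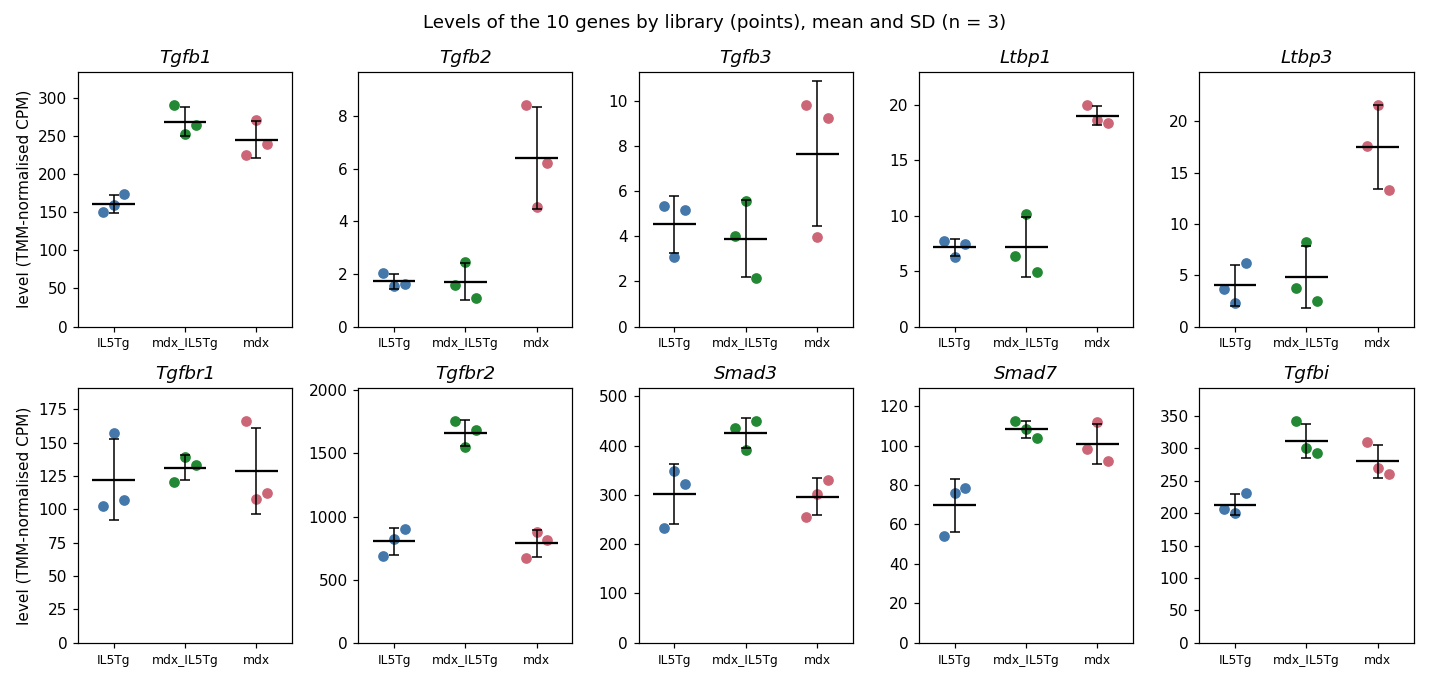
Level of each of the 10 genes in TMM-normalised CPM (linear axis from 0) by group, each point 1 library and the bar with whiskers the mean ± SD (n = 3). Tgfbr2 stands between 1551 and 1754 CPM in mdx_IL5Tg and between 673 and 899 in the other groups, while Ltbp1 lies at 18.37 to 19.97 CPM in mdx and at 4.93 to 10.1 elsewhere.

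The sequences upstream of the start sites of genes that differed in pattern are shown here, so that the promoters of the 3 genes highest in mdx can be read beside those of the most abundant ligand and receptor. Each is the stretch of 250 bases before a RefSeq start in GRCm38.p6, written 5′ to 3′ on the gene's own strand. Capitals mark the motif CAGAC, a core bound by Smad proteins, or GTCTG, the same motif on the other strand.
Tgfb2, chr1:186705990-186706239, minus strand: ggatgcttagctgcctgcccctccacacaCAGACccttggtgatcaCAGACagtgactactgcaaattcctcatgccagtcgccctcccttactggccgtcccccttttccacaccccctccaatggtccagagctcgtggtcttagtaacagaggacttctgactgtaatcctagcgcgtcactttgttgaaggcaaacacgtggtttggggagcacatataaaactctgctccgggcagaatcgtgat
Ltbp1, chr17:75005279-75005528, plus strand: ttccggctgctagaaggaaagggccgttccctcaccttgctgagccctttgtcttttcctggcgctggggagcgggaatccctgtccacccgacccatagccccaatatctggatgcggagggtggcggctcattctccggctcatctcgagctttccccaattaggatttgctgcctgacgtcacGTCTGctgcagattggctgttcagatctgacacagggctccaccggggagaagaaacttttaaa
Ltbp3, chr19:5740650-5740899, plus strand: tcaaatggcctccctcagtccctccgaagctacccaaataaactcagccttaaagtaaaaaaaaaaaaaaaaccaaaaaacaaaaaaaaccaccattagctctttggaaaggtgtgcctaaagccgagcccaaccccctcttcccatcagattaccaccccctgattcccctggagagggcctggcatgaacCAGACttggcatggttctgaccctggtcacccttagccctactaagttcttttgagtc
Tgfb1, chr7:25686752-25687001, plus strand: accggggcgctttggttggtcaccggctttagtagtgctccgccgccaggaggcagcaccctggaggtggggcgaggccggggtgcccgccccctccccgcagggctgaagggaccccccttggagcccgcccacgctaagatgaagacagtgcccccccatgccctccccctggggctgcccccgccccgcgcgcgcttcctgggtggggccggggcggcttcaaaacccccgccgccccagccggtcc
Tgfbr2, chr9:116175364-116175613, minus strand: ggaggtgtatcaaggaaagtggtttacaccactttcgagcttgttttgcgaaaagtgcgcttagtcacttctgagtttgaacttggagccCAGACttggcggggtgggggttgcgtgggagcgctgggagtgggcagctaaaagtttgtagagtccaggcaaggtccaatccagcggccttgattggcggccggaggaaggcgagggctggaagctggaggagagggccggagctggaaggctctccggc
The Tgfb2 window held 2 copies of CAGAC or GTCTG, the Ltbp1, Ltbp3 and Tgfbr2 windows printed here held 1 each, and that of Tgfb1 held 0. Ltbp1 had another start in the RefSeq table, not printed, whose window (chr17:75178531-75178780) held 2 copies, 148 and 97 bases before that start. Of the other genes with windows not printed, Tgfbi held 2 copies, Smad3 held 0, and Tgfbr1 held 0 or 1 depending on the start. The motif stood in 42.2% of all 32851 promoter windows of this length, so its presence is common. Base composition also differed: G and C made up 75.2% of the Tgfb1 window, 58.4% for Tgfbr2, 56.8% for Ltbp1, 53.6% for Tgfb2 and 47.2% for Ltbp3. The AP-1 motif TGANTCA (6.75% of windows), the STAT motif TTCNNNGAA (7.02%) and the GATA motif AGATAA with its reverse TTATCT (9.99%) were in none of the windows of the 8 genes that had a table entry. Tgfb3 and Smad7 had no entry. A motif match describes letters only.

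Tgfb1, on chr7:25687002-25705077 (GRCm38, plus strand), encodes the main ligand of the immune system. Its level was 151, 159 and 173 CPM in IL5Tg libraries S7, S8 and S9. It was 291, 252 and 264 CPM in mdx_IL5Tg libraries S1, S2 and S3, and 225, 272 and 240 CPM in mdx libraries S4, S5 and S6. All 6 libraries on the mdx background lay above all 3 of IL5Tg, and the mdx and mdx_IL5Tg ranges overlapped. Its log2 change was 0.74 (SE 0.13, adjusted p = 0.013 by edgeR) in mdx_IL5Tg against IL5Tg and 0.61 (SE 0.13, adjusted p = 0.0079 by edgeR) in mdx against IL5Tg. Between mdx and mdx_IL5Tg it was −0.13 (SE 0.13, adjusted p = 0.48 by edgeR). The first of these calls was lost without mdx_IL5Tg library S1 (log2 change 0.73, adjusted p = 0.075 by edgeR), and the call in mdx against IL5Tg held in all 18 alternatives run.

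Tgfb2, on chr1:186622792-186705989 (minus strand), encodes a ligand known for roles in mesenchymal tissues. It was a low-level transcript here, at 2.05, 1.53 and 1.60 CPM in IL5Tg and 1.58, 2.47 and 1.07 CPM in mdx_IL5Tg. In mdx it was 8.42, 4.55 and 6.2 CPM, so each mdx library lay above every library with the transgene. In mdx it was higher by 1.91 on the log2 scale (SE 0.35, adjusted p = 0.0046 by edgeR) against mdx_IL5Tg and by 1.89 (SE 0.35, adjusted p = 0.0046 by edgeR) against IL5Tg, about 3.7-fold. Between mdx_IL5Tg and IL5Tg it was −0.018 (SE 0.35, adjusted p = 0.98 by edgeR). Both mdx calls held in all 18 alternatives. An annotated antisense transcript, Gm29491, covers 124 exonic bases of Tgfb2, and without a stated strand setting reads there cannot be told apart.

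Tgfb3, on chr12:86056745-86079041 (minus strand), encodes the third ligand. Its level was 5.34, 3.08 and 5.14 CPM in IL5Tg and 3.99, 5.54 and 2.14 CPM in mdx_IL5Tg. In mdx it was 9.80, 3.95 and 9.21 CPM, with S4 and S6 above all other libraries and S5 within their range. The log2 change in mdx was 0.98 (SE 0.41, adjusted p = 0.11 by edgeR) against mdx_IL5Tg and 0.76 (SE 0.41, adjusted p = 0.21 by edgeR) against IL5Tg. Without mdx library S5 the first comparison passed the threshold (log2 change 1.28, adjusted p = 0.031 by edgeR), as it did with no filter (1.01, adjusted p = 0.041 by edgeR) and with S7 and S5 both left out (1.28, adjusted p = 0.037 by edgeR). Voom with quality weights called both comparisons (adjusted p = 0.0059 and 0.02). Reads in 163 and 257 exonic bases of Tgfb3 may belong to the opposite-strand genes Gm37804 and Gm48008.

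Between genes, levels were compared only per kilobase of annotated exon. On that scale Tgfb1 made up 95.1% ± 1.25 (SD, n = 3) of the summed ligand level in IL5Tg, 97.3% ± 1.22 in mdx_IL5Tg and 93.4% ± 2.78 in mdx. The Tgfb2 share was 0.894% ± 0.191, 0.542% ± 0.245 and 2.15% ± 0.783, and the Tgfb3 share was 3.98% ± 1.11, 2.11% ± 0.98 and 4.44% ± 2.05. Tgfb1 was thus the main ligand transcript in every group, while the group differences of Tgfb2 concerned a minor part of the ligand RNA. The order of all 10 genes by mean level per kilobase in IL5Tg was Tgfbr2 (98.1 CPM per kb), Tgfbi (56.4), Smad3 (54.3), Tgfb1 (32.0), Tgfbr1 (18.7), Smad7 (15.4), Tgfb3 (1.34), Ltbp1 (0.668), Ltbp3 (0.442) and Tgfb2 (0.298). Tgfbi and Smad3 differed by less than their spread (SD 4.29 and 11.0). Tgfbr1 and Smad7 differed by less than the SD of Tgfbr1 (4.67) but by more than that of Smad7 (2.94). Ltbp3 and Tgfb2 differed by less than the SD of Ltbp3 (0.217) but by more than that of Tgfb2 (0.0487). In mdx the last 4 genes stood closer together as ratios, though not as differences. They were at 2.26 CPM per kb for Tgfb3, 1.93 for Ltbp3, 1.78 for Ltbp1 and 1.10 for Tgfb2.

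**Figure D2:**
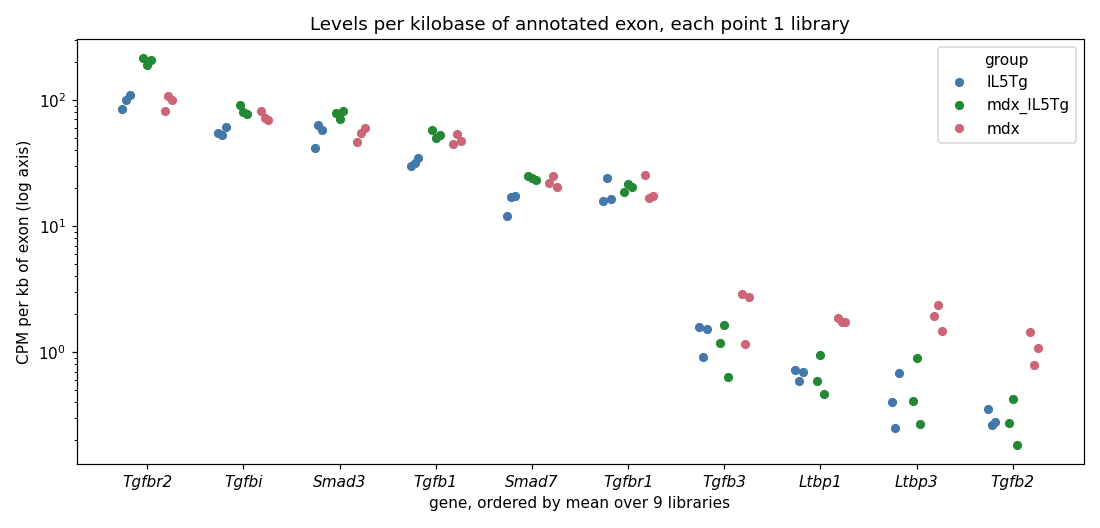
Level of each gene in CPM per kilobase of annotated exon (log axis), each point 1 library, coloured by group and ordered by the mean over the 9 libraries. A gap separates 6 genes whose group means are between 15.4 and 203 CPM per kb from 4 genes whose group means are between 0.295 and 2.26.

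Ltbp1, on chr17:75005568-75392512 (plus strand), encodes a protein that tethers latent ligand to the matrix. It stood at 7.68, 6.30 and 7.46 CPM in IL5Tg, 6.36, 10.1 and 4.93 CPM in mdx_IL5Tg, and 19.97, 18.6 and 18.4 CPM in mdx. The mdx libraries lay close together and above all others, and mdx_IL5Tg library S2 was the highest of the rest. The log2 change in mdx was 1.41 (SE 0.25, adjusted p = 0.0038 by edgeR) against mdx_IL5Tg and 1.41 (SE 0.25, adjusted p = 0.0033 by edgeR) against IL5Tg. In mdx_IL5Tg against IL5Tg it was 0.00046 (SE 0.25, adjusted p = 1 by edgeR). Both mdx calls held in all 18 alternatives.

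Ltbp3, on chr19:5740904-5758532 (plus strand), encodes a second protein of this kind. Its level was 3.62, 2.27 and 6.15 CPM in IL5Tg and 3.71, 8.21 and 2.45 CPM in mdx_IL5Tg. In mdx it was 17.6, 21.6 and 13.3 CPM, above every other library. That was a log2 change of 1.87 (SE 0.45, adjusted p = 0.016 by edgeR) against mdx_IL5Tg and 2.13 (SE 0.46, adjusted p = 0.0095 by edgeR) against IL5Tg. The call against mdx_IL5Tg was lost without mdx_IL5Tg library S1 (log2 change 1.62, adjusted p = 0.087 by edgeR). With IL5Tg S7 and mdx S5 both left out, an alternative chosen with the data known, the calls were lost at 1.69 (adjusted p = 0.056 by edgeR) and 1.88 (adjusted p = 0.081 by edgeR).

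The fibroblast marker sum was also highest in mdx. Of the 10 fibroblast markers, 9 were higher in mdx than in mdx_IL5Tg and 9 were higher in mdx than in IL5Tg, by the same test. For these 2 comparisons the shares over all genes tested were 11.5% and 11.8% higher, and 10.1% and 8.96% lower. The library order of Ltbp3 in mdx was that of the marker sum: S5 (10995 CPM), S4 (6986) and S6 (4537). Within mdx_IL5Tg, S2 had the highest sum (3088 CPM, against 1477 in S1 and 794 in S3) and the highest Tgfb2, Tgfb3, Ltbp1 and Ltbp3. Within IL5Tg, S9 had the highest sum (2278 CPM) and the highest Ltbp3, while Tgfb2, Tgfb3 and Ltbp1 were highest in S7. In mdx, Ltbp3 was the only one of the 4 genes to follow the order of the sum: S5 had the lowest level of Tgfb2 and Tgfb3, and Ltbp1 was highest in S4 and close in S5 and S6. Single markers of the list did not share 1 order. Col1a1, the largest part of the sum, stood at 2838, 5317 and 2002 CPM in S4, S5 and S6. Col1a2, Col3a1 and Fbn1 were also highest in S5. Dcn (122, 32.7 and 72.9 CPM in that order), Pdgfrb, Lum and Dpt were lowest in S5, and Pdgfra and Postn were in between. Markers of other lists were also called, in both directions, and their counts stand beside the same shares. In mdx against IL5Tg, 11 of 12 macrophage, 11 of 11 muscle fibre, 7 of 8 myoblast, 4 of 8 class II and dendritic cell, 4 of 6 monocyte, 3 of 8 endothelial and 2 of 5 mast cell and basophil markers were higher, and 6 of 10 eosinophil markers were lower. In mdx against mdx_IL5Tg, 9 of 12 macrophage, 7 of 11 muscle fibre, 6 of 8 myoblast, 2 of 8 class II, 4 of 6 monocyte, 1 of 8 endothelial and 2 of 5 mast cell and basophil markers were higher, and 3 of 10 eosinophil markers were lower. The 1 of 8 endothelial markers higher there was near the share over all genes. In mdx against IL5Tg, 3 of 8 proliferation and 2 of 10 neutrophil markers were lower. So were 2 of 4 T and NK cell markers, with 1 higher, and 1 of 6 monocyte markers. In mdx against mdx_IL5Tg, 1 of 10 neutrophil markers was higher and 1 lower. There 1 of 4 T and NK cell markers was lower. Of 3 platelet markers, 1 was higher and 1 lower in each comparison with mdx. The 8 endothelial markers summed to 515 to 709, 323 to 723 and 703 to 844 CPM. The part of these cell types in the results on Tgfb2, Ltbp1 and Ltbp3 was not tested.

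**Figure D3:**
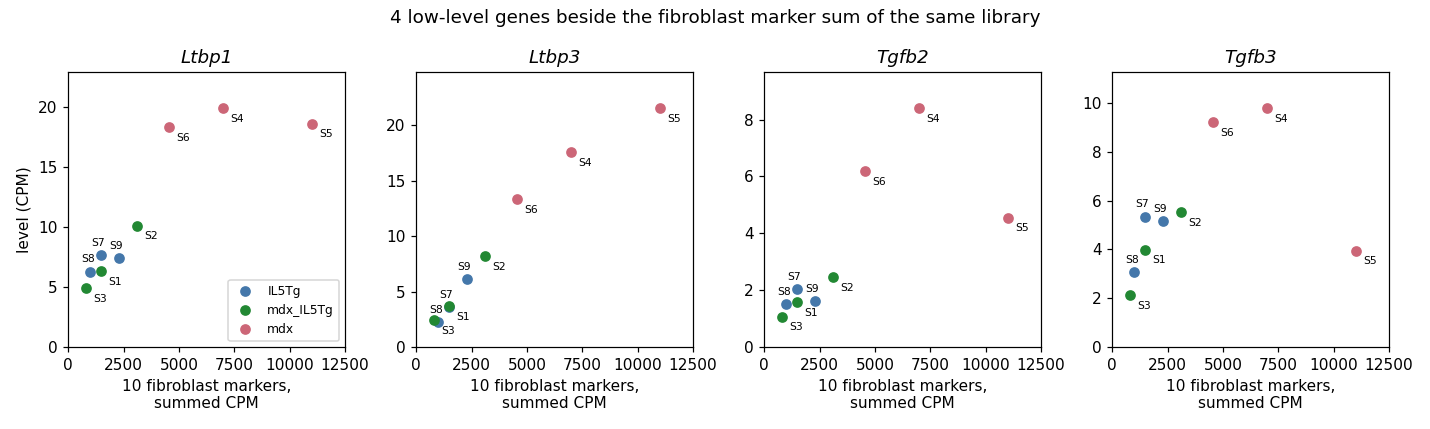
Level of Ltbp1, Ltbp3, Tgfb2 and Tgfb3 (CPM) against the summed level of 10 fibroblast markers (CPM) in the same library, each point labelled with its library number. The 3 mdx libraries lie to the right of the other 6 in every panel. Ltbp3 is highest at the highest sum (S5), Tgfb2 and Tgfb3 are lowest of mdx there, and Ltbp1 differs little among the mdx libraries.

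Tgfbr2, on chr9:116084293-116175360 (minus strand), encodes the receptor that binds the ligand first, and was the most abundant of the 10 per kilobase. Its level was 690, 821 and 899 CPM in IL5Tg, 1754, 1551 and 1683 CPM in mdx_IL5Tg, and 673, 881 and 812 CPM in mdx. The mdx_IL5Tg libraries lay above all others, and the IL5Tg and mdx ranges overlapped. Its log2 change was 1.05 (SE 0.15, adjusted p = 0.0066 by edgeR) in mdx_IL5Tg against IL5Tg and −1.08 (SE 0.15, adjusted p = 0.0012 by edgeR) in mdx against mdx_IL5Tg. In mdx against IL5Tg it was −0.027 (SE 0.15, adjusted p = 0.92 by edgeR). Both calls held in all 18 alternatives.

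Tgfbr1, on chr4:47353222-47414931 (plus strand), encodes the receptor kinase that phosphorylates Smad2 and Smad3. It stood at 102, 157 and 107 CPM in IL5Tg, 121, 140 and 133 CPM in mdx_IL5Tg, and 166, 108 and 113 CPM in mdx. All 3 ranges overlapped, and the log2 changes were 0.10 (SE 0.2), −0.027 (SE 0.2) and 0.075 (SE 0.2), with edgeR adjusted p of 0.78, 0.94 and 0.82. The ratio of Tgfbr2 to Tgfbr1 per kilobase was 5.41 ± 1.26 (SD, n = 3) in IL5Tg, 10.2 ± 1.36 in mdx_IL5Tg and 5.17 ± 1.71 in mdx.

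Smad3, on chr9:63646767-63757994 (minus strand), encodes the transcription factor that carries the signal to the nucleus. Its level was 232, 349 and 322 CPM in IL5Tg, 436, 392 and 449 CPM in mdx_IL5Tg, and 256, 303 and 330 CPM in mdx. Each mdx_IL5Tg library lay above every other library. The log2 change was −0.52 (SE 0.17, adjusted p = 0.048 by edgeR) in mdx against mdx_IL5Tg, 0.50 (SE 0.17, adjusted p = 0.09 by edgeR) in mdx_IL5Tg against IL5Tg, and −0.024 (SE 0.17, adjusted p = 0.93 by edgeR) in mdx against IL5Tg. The call was lost without mdx_IL5Tg S1 (adjusted p = 0.096), mdx_IL5Tg S3 (0.075), mdx S4 (0.11) or mdx S5 (0.06), with the stricter filter (log2 change −0.47, adjusted p = 0.059 by edgeR) and under library totals (−0.20). Voom with quality weights called Smad3 higher in mdx_IL5Tg than in IL5Tg (0.43, adjusted p = 0.034).

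Smad7 encodes an inhibitory Smad that is itself a target of the pathway. It stood at 54.3, 76.1 and 78.4 CPM in IL5Tg, 112, 109 and 104 CPM in mdx_IL5Tg, and 98.3, 112 and 92.0 CPM in mdx. All 6 libraries on the mdx background lay above IL5Tg, where S7 was the lowest. The log2 change was 0.64 (SE 0.15, adjusted p = 0.036 by edgeR) in mdx_IL5Tg and 0.53 (SE 0.15, adjusted p = 0.032 by edgeR) in mdx, each against IL5Tg, and −0.10 (SE 0.15, adjusted p = 0.66 by edgeR) in mdx against mdx_IL5Tg. The call in mdx against IL5Tg was lost whichever of the 9 libraries was left out. That in mdx_IL5Tg against IL5Tg was lost without S7 (adjusted p = 0.078), S8 (0.059), S9 (0.062), S1 (0.15) or S2 (0.092). The ratio of Smad3 to Smad7 per kilobase was 3.53 ± 0.196 (SD, n = 3) in IL5Tg, 3.21 ± 0.297 in mdx_IL5Tg and 2.42 ± 0.443 in mdx.

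Tgfbi, on chr13:56609523-56639562 (plus strand), encodes a secreted matrix protein. Its level was 207, 200 and 231 CPM in IL5Tg, 342, 301 and 293 CPM in mdx_IL5Tg, and 309, 270 and 261 CPM in mdx. No library on the mdx background overlapped with IL5Tg. The log2 change was 0.55 (SE 0.13, adjusted p = 0.034 by edgeR) in mdx_IL5Tg and 0.40 (SE 0.13, adjusted p = 0.049 by edgeR) in mdx, each against IL5Tg, and −0.16 (SE 0.13, adjusted p = 0.41 by edgeR) in mdx against mdx_IL5Tg. As with Smad7, the call in mdx against IL5Tg was lost whichever library was left out. That in mdx_IL5Tg against IL5Tg was lost without S7 (adjusted p = 0.068), S8 (0.071), S9 (0.056), S1 (0.14) or S2 (0.074). Macrophages also express Tgfbi, and the macrophage marker sum was higher in mdx_IL5Tg than in IL5Tg and higher again in mdx. Csf1r made the largest part of that sum, at 189 to 230 CPM in IL5Tg and 307 to 348 in mdx_IL5Tg. The part of macrophages in the result was not tested.

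**Figure D4:**
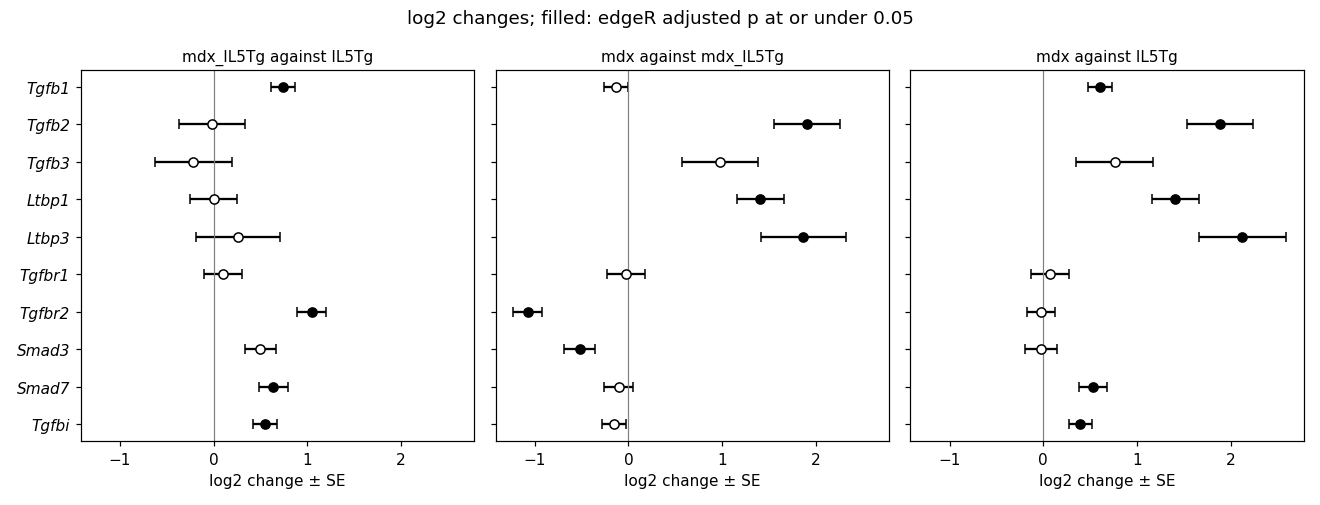
log2 change ± SE of each gene in the 3 comparisons, filled where the edgeR adjusted p was at or under 0.05. Tgfbr2 lies at 1.05 in the first panel and −1.08 in the second, and Tgfb2, Ltbp1 and Ltbp3 lie between 1.41 and 2.13 in both panels with mdx first.

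Over the 9 libraries, correlations between the log2 levels of the 10 genes are given as a description, since the libraries share their groups. Tgfb2, Ltbp1 and Ltbp3 had pairwise Pearson r of 0.98 (Tgfb2 with Ltbp1), 0.96 (Ltbp1 with Ltbp3) and 0.90 (Tgfb2 with Ltbp3). Tgfb1, Smad7 and Tgfbi had r of 0.93 (Tgfb1 with Smad7), 0.90 (Tgfb1 with Tgfbi) and 0.85 (Tgfbi with Smad7). Tgfbr2 and Smad3 had r of 0.91. Tgfb3 had r of 0.82 with Tgfb2, 0.76 with Ltbp1 and 0.69 with Ltbp3, and Tgfbr1 had no r above 0.29 with any of the others. Profiles were compared only with tested genes at or above the median mean log2 CPM, leaving out predicted, pseudogene and clone names. Among these, the genes most like Tgfbr2 over the 9 libraries were Gpr55 (r = 0.99, at 68.7, 146 and 69.8 CPM in IL5Tg, mdx_IL5Tg and mdx), Tmub2 (r = 0.99) and Txnip (r = 0.98). Those most like Ltbp3 were Col8a1, a collagen gene (r = 0.99), Tnxb, a tenascin gene (r = 0.99), and Trim47 (r = 0.99). Kdr, an endothelial receptor gene, was among the 3 most like Ltbp1 (r = 0.99, at 28.1, 30.5 and 70.8 CPM), with Phldb1 and Pkd2. Tgfb2 was most like Gab1, Itih5 and Nolc1, and Tgfb1 most like Ccdc71, Ptprs and Med16. Grn, the progranulin gene, was most like Tgfbi (r = 0.99), Casz1 most like Smad3 (r = 0.99) and Dnttip1 most like Smad7 (r = 0.99).

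The other genes of the pathway were taken from 5 lists of 100 genes, of which 91 were tested. Their counts stand beside the shares of all genes tested: 4.35% higher and 2.87% lower in mdx_IL5Tg against IL5Tg. Those shares were 11.5% and 10.1% in mdx against mdx_IL5Tg, and 11.8% and 8.96% in mdx against IL5Tg. List medians stand beside −0.050, 0.13 and 0.013 over all genes tested, in the same order. A count near its share is no result about a list. In mdx_IL5Tg against IL5Tg, 6 of 17 genes of latent ligand storage and activation were higher and 0 lower, with a list median of 0.42. Tgm2, a transglutaminase that crosslinks latent complexes to the matrix, rose from 3130 ± 499 CPM to 11429 ± 522 (SD, n = 3 each; log2 change 1.87, SE 0.16, adjusted p = 0.00054 by edgeR). Thbs1, thrombospondin-1, an activator of the latent ligand, rose from 16715 ± 3458 to 37374 ± 4463 CPM (log2 change 1.16, SE 0.19, adjusted p = 0.0097 by edgeR). Both calls held in all 18 alternatives. The calls of Itgb5, an integrin chain (1.65), Mmp9, a protease (1.06), Furin, the convertase of the ligand precursor (0.64), and Ltbp2 (2.23) were each lost when a library was left out: Itgb5 without S7 or S1, Mmp9 without S7, S8, S1 or S2, and Furin and Ltbp2 without S7, S8, S9, S1 or S2. Ltbp2 was at a low level, 0.330 ± 0.118 CPM in IL5Tg and 1.55 ± 0.883 in mdx_IL5Tg. Without S7 or S1 the list count was 2, and without S8 or S2 it was 3. At an unadjusted p of 0.05, 1 gene of the list was lower, and DESeq2 and both voom fits called 0.

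Among the 23 response genes tested, 2 were higher and 0 lower in mdx_IL5Tg than in IL5Tg, beside 4.35% and 2.87% of all genes. Itgae, an integrin chain induced by the ligand in lymphocytes, rose from 0.365 ± 0.24 to 2.54 ± 0.792 CPM (log2 change 2.78, SE 0.53, adjusted p = 0.02 by edgeR), a call lost without S9, S1 or S2. Postn (log2 change 1.55, adjusted p = 0.066 by edgeR) and Cdkn1a (0.49, adjusted p = 0.1 by edgeR) did not pass as fitted here. Postn passed with DESeq2, voom with quality weights, only these groups, and without S3 or mdx S4. Cdkn1a passed without mdx S5. The list count was 5 without S3, 6 without mdx S5, and 1 without S9, S1 or S2. At an unadjusted p of 0.05, 1 was lower, and DESeq2, voom and voom with quality weights called 0, 0 and 1.

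Of 24 other Smads and regulators tested, 2 were higher and 0 lower in that comparison: Ski and Skil, corepressors that bind Smad3. The counts of this and the next 2 lists stand beside 4.35% higher and 2.87% lower over all genes. Skil rose from 267 ± 4.01 to 457 ± 8.21 CPM (log2 change 0.78, SE 0.13, adjusted p = 0.012 by edgeR) and Ski from 194 ± 43.9 to 424 ± 25.6 CPM (1.13, SE 0.18, adjusted p = 0.0084 by edgeR), and both held in all 18 alternatives. Smad2 (log2 change 0.080, adjusted p = 0.72 by edgeR) and Smad4 (0.27, adjusted p = 0.37 by edgeR) did not pass. Of 15 other ligands and antagonists, Inhbb, an activin chain, was higher (1.33, adjusted p = 0.046 by edgeR), and of 12 other receptors, Bmpr2, a BMP receptor, was lower (−0.72, adjusted p = 0.05 by edgeR). The counts in the other direction were 0 for these 3 lists, and at an unadjusted p of 0.05 they were 2 lower Smads and regulators, 0 lower ligands and 1 higher receptor. DESeq2, voom and voom with quality weights called 1, 0 and 3 Smads and regulators lower and 0 of the others. Without mdx S5, 1 Smad or regulator was lower, and without S3, 3 ligands were higher. The Inhbb call was lost without S7, S8, S9, S1, S2 or mdx S6, and the Bmpr2 call without S7, S8, S9, S1, S2, mdx S4 or mdx S6.

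In mdx against mdx_IL5Tg, 3 genes of ligand storage and activation were lower and 5 higher, with a list median of 0.78. Over all genes tested, 10.1% were lower and 11.5% higher. Furin fell from 1506 ± 125 to 634 ± 19.7 CPM (log2 change −1.25, SE 0.14, adjusted p = 0.00032 by edgeR) in every setting run. Tgm2 fell by 0.67 on the log2 scale (SE 0.16, adjusted p = 0.013 by edgeR). Nrros, which holds latent Tgfb1 on myeloid cells, fell by 0.53 (SE 0.15, adjusted p = 0.03 by edgeR), a call lost without mdx_IL5Tg S1, mdx S4 or mdx S5. Under library totals the calls of Tgm2 and Nrros were lost. The higher genes were Ltbp2 (2.08), Fbn1, the fibrillin that Ltbp proteins bind (1.51), Mmp14, a membrane protease (1.68), Itgb5 (1.20) and Itgb8 (1.92), and each lost its call without mdx_IL5Tg S1, where the list count was 0. Mmp14, Itgb5 and Itgb8 also lost it without mdx S4, Itgb5 and Itgb8 without S3, and Itgb8 without mdx S6. Without mdx S4 that count was 2 and without S3 it was 3.

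The response genes divided in the same comparison, with 9 of 23 higher and 4 lower (list median 0.73), beside 11.5% and 10.1% of all genes. The lower ones were Cdkn2b and Cdkn1a, inhibitors of the cell cycle, Itgae, and Bhlhe40, a transcription factor. Cdkn2b fell from 24.7 ± 3.3 to 4.94 ± 2.32 CPM (log2 change −2.33, SE 0.3, adjusted p = 0.00062 by edgeR), Itgae had a log2 change of −3.94 (SE 0.57, adjusted p = 0.0013 by edgeR), Cdkn1a of −1.03 (SE 0.18, adjusted p = 0.0034 by edgeR) and Bhlhe40 of −0.69 (SE 0.13, adjusted p = 0.0056 by edgeR). The first 3 held in all 18 alternatives, and Bhlhe40 in all but library totals. The higher genes included the matrix genes Col3a1 (2.09), Fn1 (2.06) and Postn (1.88), and the fibroblast marker list also holds Col3a1 and Postn. Their calls were lost without S1 or mdx S4, and those of Col3a1 and Postn also without S3. The count of higher genes was 0 without S1 and 1 without S3 or mdx S4.

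Other ligands and antagonists were higher in mdx than in mdx_IL5Tg for 11 of 15 genes tested, with 0 lower (1 at an unadjusted p of 0.05, and 0 by DESeq2 and both voom fits) and a list median of 1.45. The shares over all genes were 11.5% higher and 10.1% lower. Inhba, the activin A chain, stood at 2.98, 5.56 and 3.16 CPM in mdx_IL5Tg and at 17.4, 9.37 and 12.8 CPM in mdx (log2 change 1.76, SE 0.31, adjusted p = 0.0035 by edgeR), and its call held in all 18 alternatives. Bmp1, a protease that processes matrix precursors (1.5), Gdf15, a stress-induced ligand (1.91), and Fst, the activin antagonist follistatin (1.88), were also higher. Their calls were lost without S1 (Bmp1, Fst) or mdx S4 (Gdf15, Fst). The list count was 2 without S1 or mdx S4, 5 without mdx S6, 6 without S3, and 7 without S8 or S9.

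Among 12 other receptors, 1 was lower and 3 higher in mdx than in mdx_IL5Tg, beside 10.1% and 11.5% of all genes. Bmpr1a, a BMP receptor kinase, stood at 34.1, 27.9 and 35.0 CPM in mdx_IL5Tg, at 34.3, 32.5 and 33.2 CPM in IL5Tg and at 11.7, 7.06 and 8.34 CPM in mdx. The log2 change was −1.84 (SE 0.19, adjusted p = 0.00017 by edgeR) against mdx_IL5Tg and −1.88 (SE 0.19, adjusted p = 0.00015 by edgeR) against IL5Tg, and both held in all 18 alternatives. The higher receptors were Cd109, a co-receptor that restrains the pathway (1.74), Tgfbr3, betaglycan, which presents ligand to Tgfbr2 (1.05), and Acvr1, an activin and BMP receptor (1.23). Each of these calls was lost without S1 or mdx S4, and the count of higher genes was then 0. Tgfbr3 also lost its call without S9, S3 or mdx S6, and Acvr1 without S7, S8, S9, S3 or mdx S6. It was 1 without S9, S3 or mdx S6, and 6 without mdx S5, where the lower count was 2.

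Of 24 Smads and regulators, 5 were higher and 2 lower in mdx than in mdx_IL5Tg, beside 11.5% and 10.1% of all genes. The lower ones were the ubiquitin ligases Smurf1, at 93.9, 90.3 and 90.0 CPM against 46.3, 50.1 and 46.4 CPM (log2 change −0.94, SE 0.15, adjusted p = 0.002 by edgeR), and Nedd4l (−1.21, SE 0.24, adjusted p = 0.007 by edgeR). Smad5, a Smad of the BMP branch, was higher by 0.66 (SE 0.12, adjusted p = 0.0047 by edgeR). These 3 calls held in all 18 alternatives. Zfyve9, an anchor that presents Smads to the receptor (1.3), lost its call without S1 or mdx S4. The higher count was 2 without S1, 3 without S3 and 1 without mdx S4, and the lower count was 4 without S7.

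In mdx against IL5Tg, 8 of 17 storage and activation genes were higher and 2 lower (list median 0.99), beside 11.8% and 8.96% of all genes. Tgm2 (log2 change 1.20, SE 0.16, adjusted p = 0.00064 by edgeR), Thbs1 (0.99, SE 0.19, adjusted p = 0.0046 by edgeR), Itgb5 (2.85, SE 0.3, adjusted p = 0.00018 by edgeR), Ltbp2 (4.31, SE 0.55, adjusted p = 0.00055 by edgeR), Mmp14 (2.73, SE 0.4, adjusted p = 0.0011 by edgeR) and Fbn1 (1.93, SE 0.32, adjusted p = 0.0023 by edgeR) rose and held in all 18 alternatives. The Ltbp2 change was from 0.330 ± 0.118 to 6.58 ± 3.2 CPM, from a low level. Furin (−0.61, adjusted p = 0.014 by edgeR) and Nrros (−0.87, adjusted p = 0.0031 by edgeR) fell, and the Furin call was lost without S9 (adjusted p = 0.053). Ltbp4 (1.21, adjusted p = 0.027 by edgeR) lost its call without S7, S8, S9, mdx S5 or mdx S6.

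Response genes were higher for 9 of 23 and lower for 1 in that comparison (list median 0.62), beside 11.8% and 8.96% of all genes. Postn rose by 3.43 (SE 0.49, adjusted p = 0.0013 by edgeR), Fn1 by 3.19 (SE 0.48, adjusted p = 0.0017 by edgeR) and Col3a1 by 3.27 (SE 0.52, adjusted p = 0.0021 by edgeR) on the log2 scale, and all 3 held in every alternative. Cdkn2b, from 15.1 ± 2.42 to 4.94 ± 2.32 CPM, was the gene that fell (−1.62, SE 0.29, adjusted p = 0.0039 by edgeR). The higher count was 5 without S8, and the lower count was 2 without S7, S3 or mdx S5.

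Other ligands and antagonists were higher for 8 of 15 genes and lower for 0, also at an unadjusted p of 0.05 and by DESeq2 and both voom fits (list median 1.77). The counts of this and the next 2 lists stand beside 11.8% higher and 8.96% lower over all genes. Inhba (2.47), Inhbb (2.41), Bmp1 (2.11) and Bmp2 (1.97) had the smallest p-values, with edgeR adjusted p of 0.00058, 0.0014, 0.0019 and 0.0031, and all 4 held in every alternative. Other receptors were higher for 2 of 12, Cd109 (2.63, adjusted p = 0.0015 by edgeR) and Acvr1 (1.14, adjusted p = 0.046 by edgeR), and lower for Bmpr1a alone. The Acvr1 call was lost without S7, S8, S9, S1, mdx S4, mdx S5 or mdx S6. Smads and regulators were higher for 7 of 24 and lower for 3 (list median 0.065). Skil (0.76, adjusted p = 0.0027 by edgeR) and Ski (0.79, adjusted p = 0.011 by edgeR) rose, Smurf1 (−0.70, adjusted p = 0.0081 by edgeR) and Nedd4l (−1.10, adjusted p = 0.01 by edgeR) fell, and these held in all 18 alternatives. The higher count was 2 without S8, 3 without S9, S1, mdx S4 or mdx S6, and 4 without S7.

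**Figure D5:**
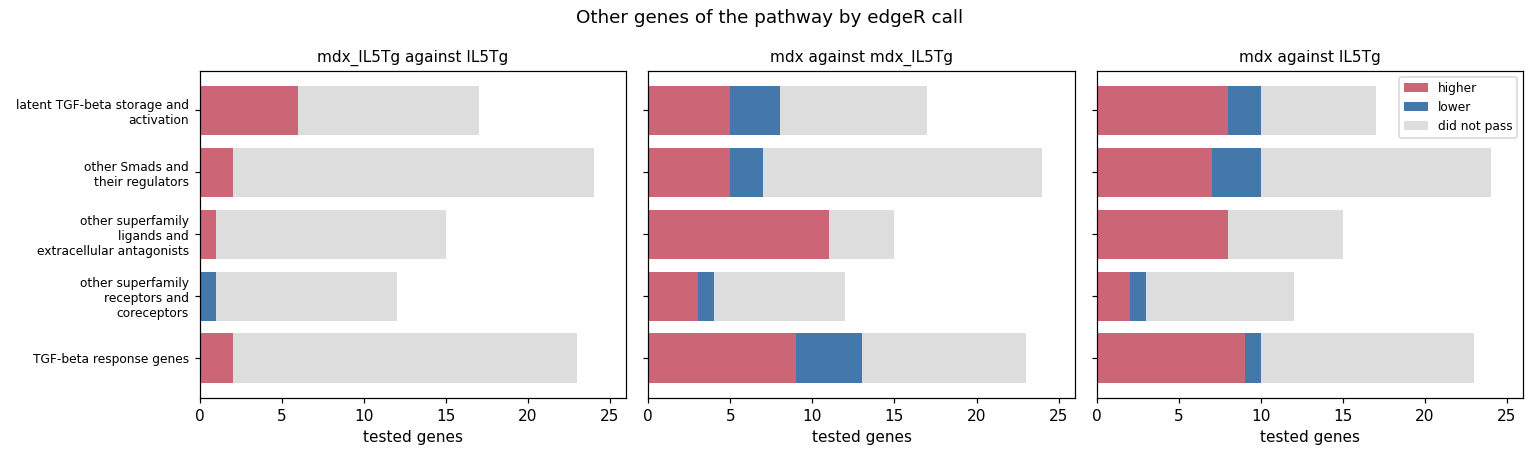
Number of tested genes in each of 5 pathway lists that were higher, lower or did not pass the edgeR threshold, in the 3 comparisons. In mdx_IL5Tg against IL5Tg the storage and activation list has 6 higher genes, and in mdx against mdx_IL5Tg the ligand and antagonist list has 11 of 15 higher.

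Tgm2 and Thbs1 were thus higher in both groups on the mdx background, as was Tgfb1, and Furin was highest in mdx_IL5Tg, as was Tgfbr2. The genes higher in mdx than in mdx_IL5Tg included Fbn1, Ltbp2, Inhba and Bmp1, and the fibroblast marker sum, whose list holds Fbn1, was higher in mdx as well. Among the mdx libraries Inhba was lowest in S5, which had the highest fibroblast sum but the lowest Dcn, Lum, Dpt and Pdgfrb of that list. The part of fibroblasts in those results was not tested either.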

How the data were processed

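Sorted cells of 9 libraries in 3 groups were measured by RNA sequencing with a low-input total RNA kit, per the labels' protocols. Per the submitters' processing notes, the tools were RSEM 1.3.0, STAR 2.5.3, cutadapt 2.10 and limma, and the build was mm10. The strand setting is not given in the sources used here. The authors deposited 1 table of RSEM expected counts, not normalised, in which 6.03% of values were not whole. These were rounded to whole counts.

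Here edgeR 4.0.16 (R 4.3.3) was run with TMM factors, filterByExpr at a count of 10, a robust quasi-likelihood fit of all 9 libraries, and Benjamini-Hochberg adjustment over the 15886 of 54146 genes tested, at a threshold of 0.05. The SE was taken from the log2 change and the test's F. Levels per kilobase used the union of exons in GENCODE M21 (GRCm38). The test was also run on counts simulated with the spread fitted to these same data. No library was made to stand apart there, so that check does not cover libraries like S7 and S5. Alternatives were DESeq2 1.42.0, limma 3.58.1 (voom, plain or with quality weights), edgeR with RLE factors or totals alone, no filter, a filter of 50 counts in 3 libraries, a fit of only the compared groups, leaving out each library, and, added later, IL5Tg S7 and mdx S5 left out together.

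The 10 genes and all lists were chosen with earlier results of these data known. Besides the 10, genes were named by rule: up to 4 of each pathway list with the smallest p per comparison, and the 3 most correlated genes of each called member. The correlated genes came only from tested genes at or above the median mean log2 CPM, without predicted, pseudogene and clone names. Other called or known genes of the lists were named after their values were seen. Some results on single genes are not reported here. Library columns carry an S number and a group but no replicate number. Same-group libraries correlated at r 0.957 to 0.987, and each pair differed by more than sampling noise.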

Additional observations from a re-analysis of the deposited data

How the results depend on the processing

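Of the 15 calls among the 10 genes, 7 held in all 18 alternatives (Tgfb1, Tgfb2 and Ltbp1 in mdx against IL5Tg, Tgfb2 and Ltbp1 in mdx against mdx_IL5Tg, and Tgfbr2 in both comparisons with mdx_IL5Tg), and 0 changed sign. The cause of the other changes was not tested. No paired analysis was possible because the columns carry no replicate number.

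In mdx_IL5Tg against IL5Tg, 4 of the 10 genes were called higher, 2 under library totals, and 1 to 4 with 1 library left out (1 without mdx_IL5Tg S1, 2 without S7, S8, S9 or S2). Over all genes, 691 were called higher and 456 lower. DESeq2 gave 1207 and 1257, voom with quality weights 2100 and 2197, library totals 311 and 981, the fit of only these groups 1123 and 693, no filter 785 lower, and leaving out S7 and S5 together 1122 higher. Leaving out 1 library gave 108 to 1557 higher and 2 to 1084 lower, the lowest without mdx_IL5Tg S1. In mdx against mdx_IL5Tg, 2 genes were called lower, 1 under library totals or the stricter filter, and 1 to 2 with 1 library left out (1 without S1, S3, mdx S4 or mdx S5). Over all genes, 1830 higher and 1603 lower became 3981 and 2958 with quality weights, 4007 and 746 under library totals, 1188 higher in the fit of only these groups, and 429 to 2035 higher with 1 library left out. In mdx against IL5Tg, the 6 genes called became 3 without S7 and S5 together, and 4 with any 1 library left out. Over all genes, 1874 higher and 1424 lower became 3030 and 2474 with quality weights, 2207 lower with DESeq2, and 948 to 1900 higher with 1 library left out.

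Counts of the pathway lists moved too. In mdx_IL5Tg against IL5Tg, the 2 response genes called higher became 4 with DESeq2, no filter or only these groups and 8 with quality weights. The 1 ligand gene became 0 with voom, library totals, or S7 and S5 left out. The 0 lower Smads and regulators became 1 with DESeq2, no filter, only these groups, or S7 and S5 left out, and 3 with quality weights. The 0 lower response genes became 1 with quality weights. In mdx against mdx_IL5Tg, the 5 storage genes higher became 8 with quality weights or library totals, and the 3 lower became 1 with library totals. The 11 ligand genes became 7 with only these groups. The 3 receptors higher became 7 with quality weights, 5 with library totals or without S7 and S5, and 1 with only these groups. The 1 receptor lower became 3 with quality weights and 2 without S7 and S5. The 9 response genes higher became 4 with no filter and 5 without S7 and S5, and the 4 lower became 7 with DESeq2. The 2 Smads and regulators lower became 5 with quality weights and 4 without S7 and S5. In mdx against IL5Tg, the 1 response gene lower became 2 with voom, no filter, or S7 and S5 left out, and 3 with DESeq2, quality weights, RLE factors or the stricter filter. The 2 receptors higher became 1 without S7 and S5, and the 1 lower became 2 with quality weights.

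Reversals were of changes that had not passed. For Ltbp1 in mdx_IL5Tg against IL5Tg the log2 change was −0.061 with voom, −0.023 with quality weights, −0.21 under library totals, −0.0019 with no filter, −0.044 with the stricter filter, −0.0041 with only these groups, and −0.29 to 0.26 with 1 library left out. In that comparison Tgfb2 was 0.060 with quality weights, 0.13 without S7 and S5, and −0.33 to 0.28 with 1 library left out; Ltbp3 was −0.046 with quality weights and −0.32 to 0.76; Tgfb3 was −0.51 to 0.13; Tgfbr1 was −0.11 under library totals and −0.0063 without S7 and S5. In mdx against mdx_IL5Tg, Tgfbr1 was 0.0099 with quality weights, 0.30 under library totals, 0.022 with the stricter filter, 0.081 without S7 and S5, and −0.33 to 0.081 with 1 library left out. Acvr1b, another receptor gene, was −0.0015 in mdx_IL5Tg against IL5Tg under library totals. Library totals gave 0.18 for Tgfb1, 0.17 for Tgfbi and 0.21 for Smad7 in mdx against mdx_IL5Tg, and 0.075 for Tgfbr2 and 0.086 for Smad3 in mdx against IL5Tg. With 1 library left out in the latter, Tgfbr1 was −0.18 to 0.25, Tgfbr2 −0.17 to 0.051 and Smad3 −0.23 to 0.057.

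The 4 genes under 25 CPM rested on the fewest counts, down to 41 for Tgfb2 in mdx_IL5Tg S3. Their SE ran from 0.25 to 0.46 on the log2 scale, against 0.13 to 0.2 for the other 6. Ltbp3 had 188, 326 and 94 counts in mdx_IL5Tg S1, S2 and S3, whose totals were highest in S1, and the part of depth in these SE was not tested.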
